A study of Mus musculus with 6 samples.

Results

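The matrix metalloproteinases (MMPs) and their tissue inhibitors (TIMPs) were described in the thoracic aorta of mice with and without deletion of the TGF-β receptor genes in smooth muscle cells. The 10 genes, Mmp2, Mmp3, Mmp9, Mmp12, Mmp14, Mmp15, Timp1, Timp2, Timp3 and Timp4, were found by Ensembl gene identifier among the 52636 genes of the deposited count table. All 10 had counts and received an adjusted p-value, as did 17559 genes in all. Bulk RNA was sequenced from 6 libraries, each of the thoracic aorta of a mouse 12 weeks of age. The WT group held 4 libraries from untreated C57BL/6J mice. The KO group held 2 libraries from mice with both receptor genes floxed (Tgfbr1f/f and Tgfbr2f/f), the mT/mG reporter and Myh11-CreERT2 (Tgfbr1/2iSMCKO), also given as strain C57BL/6J. These mice had received 2 mg of tamoxifen i.p. on each of 5 days, beginning when they were 11 weeks old. In these mice the Myh11 promoter drives a tamoxifen-activated Cre in smooth muscle cells, so that other cells of the aorta keep both receptor genes. The WT mice carried neither the floxed alleles, the Cre transgene nor the mT/mG reporter and had no tamoxifen, and the effects of these differences cannot be told apart from that of the deletion. Libraries are named by the trailing number of their column code (WT-1 to WT-4, KO-1 and KO-2), and the group of each column was inferred from that code.

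MMPs are zinc-dependent proteases that cleave collagens, elastin, proteoglycans and many other proteins of the extracellular matrix. Most are secreted as inactive proenzymes and are activated by plasmin, by furin-like convertases or by other MMPs, while the membrane-type members act at the cell surface. TIMPs bind the active site of MMPs and block it, and TIMP3, which is held in the matrix, also inhibits several ADAM and ADAMTS proteases. In the wall of the aorta the balance of these proteases and inhibitors is known for its part in the turnover of elastic lamellae and collagen and in aneurysm.

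Total counts ran from 19650983 to 28860598 per library, so that even Mmp12, the least abundant of the 10 genes, had 23 to 134 counts in a library. The share of mitochondrial counts was 2.62% to 4.44% in the WT libraries, 3.38% in KO-1 and 11.7% in KO-2. Smooth muscle marker genes were abundant in all libraries, with summed normalised counts (counts divided by DESeq2 size factors) of 857207 to 1004394 in WT, 809911 in KO-1 and 953430 in KO-2. None of the 8 smooth muscle markers passed the test between groups. The whole-gene counts of Tgfbr1 (log2 fold change of KO over WT 0.20, DESeq2 adjusted p = 0.640) and Tgfbr2 (log2 fold change -0.09, DESeq2 adjusted p = 0.845) do not check the deletion, since they include exons outside it and RNA of cells without Cre. Among 7 genes known to respond to TGF-β, 3 fell in KO and none rose, with a median log2 fold change of -0.52. Across all genes tested, 4.53% fell and the median was 0.01. The list was chosen with earlier results of these data known. The 3 that fell were Pmepa1 (log2 fold change -1.45), Ccn2 (-1.28) and Fn1 (-0.75), with DESeq2 adjusted p-values of 5.92e-14, 7.65e-06 and 1.18e-04. Tgfbi (-0.515), Ltbp2 (-0.337), Skil (-0.179) and Smad7 (-0.135) did not pass, with DESeq2 adjusted p-values from 0.220 to 0.765.

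Of the 10 MMP and TIMP genes, 1 fell in KO, Mmp3, and none rose, at an adjusted p under 0.05. Across all genes tested, 4.53% passed with a lower and 5.51% with a higher level in KO. A count of 1 among 10 genes is near this background. The same shares are the background for the counts of the other gene lists and marker lists. No member passed the stricter rule that also asks for a change above 2-fold, against 5.48% of all genes tested. The median log2 fold change of the members was 0.23, beside 0.01 over all genes tested. For Mmp14, Mmp15, Timp3 and Timp4 both KO libraries lay above all WT libraries, which held for 17.6% of all genes tested. For Timp2 both KO libraries lay below all WT libraries, as for 16.3% of all genes tested. Whether fewer cells of a type or less RNA per cell underlies a lower level cannot be told apart in bulk RNA.

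**Figure D1:**
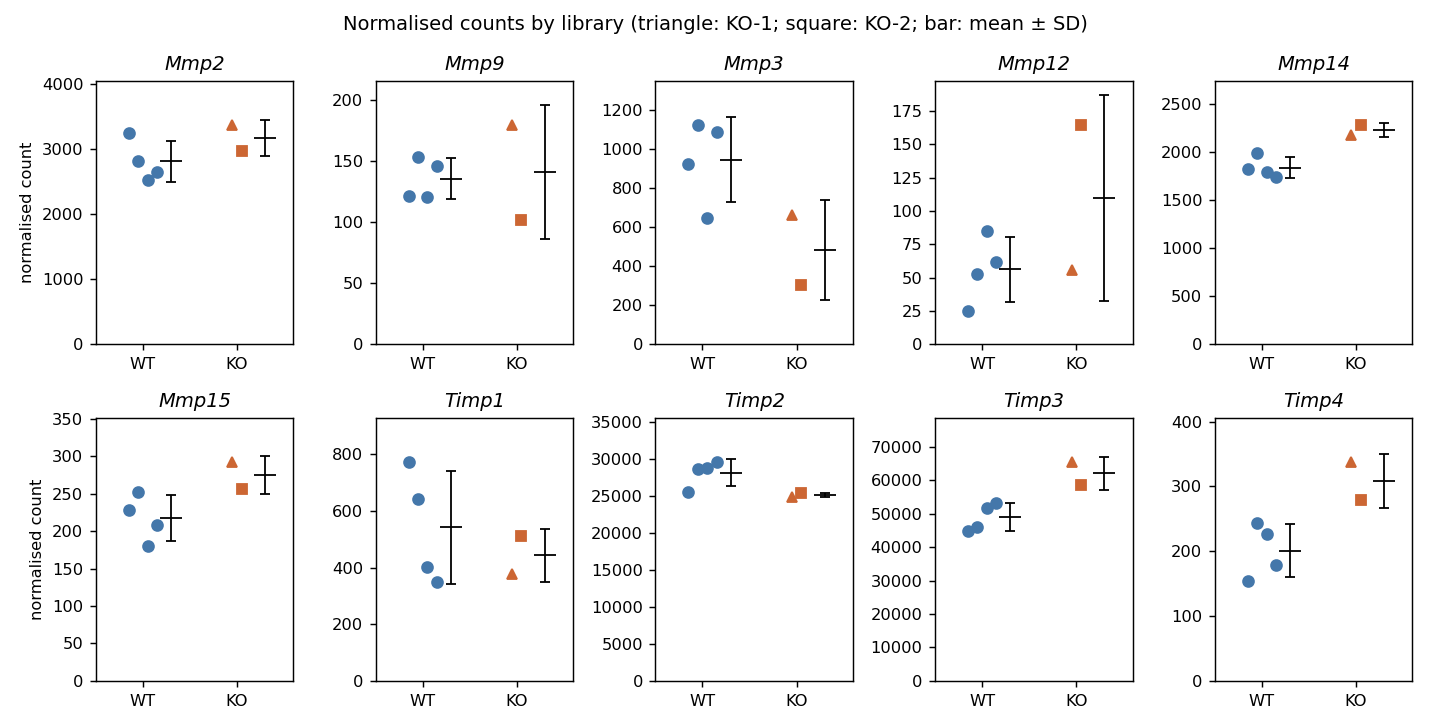
Normalised counts of the 10 genes in each library (WT, circles; KO-1, triangle; KO-2, square; bar, mean ± SD; each vertical axis starts at 0). KO-1 lies inside the WT range for Mmp3 and Mmp12, where KO-2 lies outside it, while both KO libraries lie above WT for Mmp14, Mmp15, Timp3 and Timp4.

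The levels of the 10 genes were compared per length, as normalised counts per kilobase of annotated exon. In WT, Timp2 (7223 ± 459.1, SD, n = 4) and Timp3 (6011 ± 517.7) made up 46.2% and 38.4% of the summed level of the 10 genes. Mmp2 followed with 835.0 ± 94.15, or 5.36% of the sum. Timp1 was at 610.3 ± 225.4 and Mmp3 at 525.2 ± 120.4. The WT ranges of Mmp2 and Timp1 overlapped, as did those of Timp1 and Mmp3, so these neighbours were not separated by their spread. Mmp14 was at 307.6 ± 18.39. Mmp15 (40.22 ± 5.714), Mmp9 (38.32 ± 4.728) and Timp4 (34.12 ± 6.954) overlapped each other. Mmp12 came last at 7.763 ± 3.403. With the longest transcript as the length instead, Timp3 (10370) stood above Timp2 (7588), Mmp14 (566.2) above Mmp3 (525.2) and Mmp9 (42.72) above Mmp15 (42.28), so the order within these pairs depends on the gene model.

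**Figure D2:**
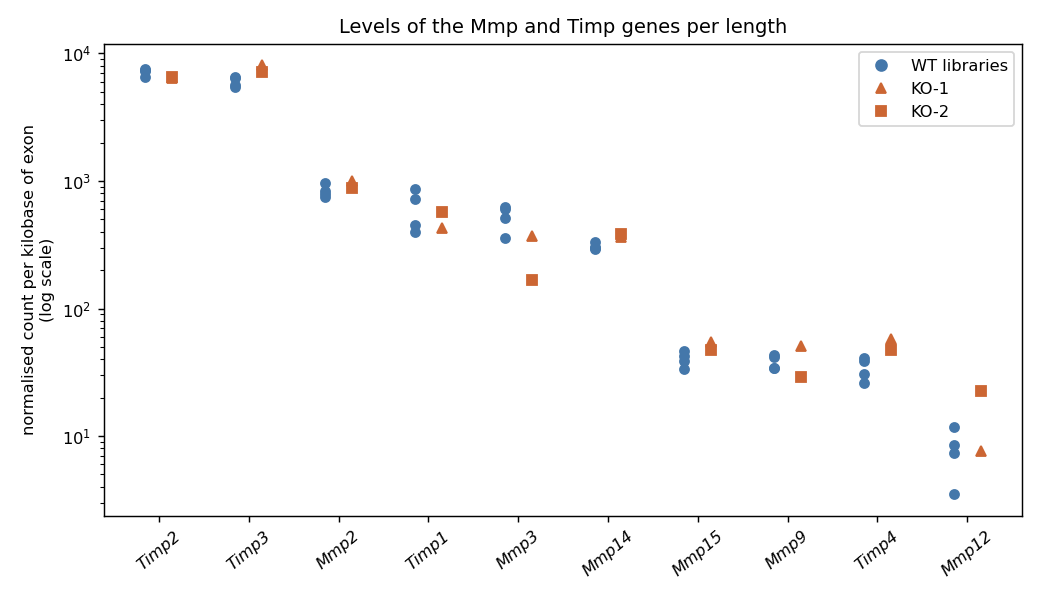
Level of each gene in each library as normalised counts per kilobase of exon, on a log scale (WT, circles; KO-1, triangles; KO-2, squares). Timp2 and Timp3 lie highest in every library and Mmp12 lowest. By this length Timp3 lies above Timp2 in both KO libraries and below it in the WT libraries. With the longest transcript as the length, the WT mean of Timp3 (10370) is already above that of Timp2 (7588).

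Mmp3 (stromelysin 1, ENSMUSG00000043613.8) cleaves proteoglycans, fibronectin and laminin and activates other MMP proenzymes. It lies on the plus strand of chromosome 9 from 7445822 to 7455975 (GRCm38), within a cluster of 10 Mmp genes that also holds Mmp12. The 300 bases from 250 before to 50 after its start are printed because Mmp3 was the only member past the threshold, and those of Timp3 are printed beside them as the inhibitor gene with the most normalised counts (RefSeq, GRCm38.p6; 8 of the 10 members had an entry). Capitals mark motif matches searched on both strands: the AP-1 site TGANTCA and the TATA box TATAAA in Mmp3, and the GC box GGGCGG, here on the minus strand, in Timp3.
Mmp3, chr9:7445572-7445871, plus strand: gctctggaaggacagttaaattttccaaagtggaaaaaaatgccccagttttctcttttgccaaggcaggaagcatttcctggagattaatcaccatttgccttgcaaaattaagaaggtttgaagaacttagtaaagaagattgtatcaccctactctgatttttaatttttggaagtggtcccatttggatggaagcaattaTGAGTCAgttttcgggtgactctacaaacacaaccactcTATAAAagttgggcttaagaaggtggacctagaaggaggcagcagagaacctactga
Timp3, chr10:86300162-86300461, plus strand: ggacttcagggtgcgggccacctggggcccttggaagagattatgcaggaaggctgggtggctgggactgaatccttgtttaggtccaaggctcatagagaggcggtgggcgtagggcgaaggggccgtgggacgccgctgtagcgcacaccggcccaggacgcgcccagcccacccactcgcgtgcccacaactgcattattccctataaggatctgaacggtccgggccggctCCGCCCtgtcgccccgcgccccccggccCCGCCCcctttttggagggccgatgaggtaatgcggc

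The Mmp3 window held 1 AP-1 site, whose first base was 46 bases before the start, and 1 TATA box, 7 bases before it. The Timp3 window held 2 GC boxes, 15 bases before and 14 bases into the transcript by their first base, and neither of the other motifs. An AP-1 site was present in 7.81% of the 32851 promoter windows of the table, a TATA box in 13.6% and a GC box in 35.7%. Of the 10 Mmp genes of the chromosome 9 cluster, 8 had a window with both an AP-1 site and a TATA box, among them Mmp3 and Mmp12 (its downstream window), and none had a GC box. Of the 8 other Mmp genes with an entry, none had an AP-1 site and 7 had a GC box, as did 3 of the 4 Timp genes. The core of the TGF-β inhibitory element, TTGGTGA, was present in 3.94% of all windows and in no window of a member. These matches describe letters in these windows and not sites in use.

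Mmp3 was at 926.0, 1124, 647.1 and 1086 normalised counts in WT-1 to WT-4, and at 664.7 in KO-1 and 302.4 in KO-2. KO-2 was below all WT libraries, while KO-1 lay inside the WT range, just above WT-3. The mean was 945.8 ± 216.9 (SD, n = 4) in WT and 483.5 ± 256.2 (n = 2) in KO, a log2 fold change of -0.96 (SE 0.32, 95% interval -1.59 to -0.34) with a DESeq2 adjusted p of 0.0292. Each KO library set against the WT mean gave -0.51 for KO-1 and -1.64 for KO-2 on the log2 scale. The call held in 5 of 13 alternative analyses, whose adjusted p ran from 3.3e-05 to 0.440. It was lost with the edgeR quasi-likelihood test (adjusted p = 0.135), with total counts as scaling (DESeq2 adjusted p = 0.0663), and without WT-1 (0.0928), WT-2 (0.159), WT-4 (0.117) or KO-2 (log2 fold change -0.50, DESeq2 adjusted p = 0.440). Fibroblasts are a known source of Mmp3. The summed level of 8 fibroblast markers was 200597 to 220546 normalised counts in WT, 231255 in KO-1 and 241104 in KO-2. Lum was at 5433 in KO-1 and 5035 in KO-2 (WT 2176 to 3088). Dpt was at 6975 in KO-1 and 6631 in KO-2 (WT 3999 to 5312). Of the 8 markers, these 2 were higher in KO and none lower. Col1a1 and Col1a2, the most abundant of them, parted in KO-2. There Col1a1 was at 109539 (WT 65840 to 83495) and Col1a2 at 73735 (WT 83223 to 94549). The paper also reports Col1a2 as lowered in isolated smooth muscle cells after the deletion, so the sum does not stand for fibroblasts alone. The part of cell makeup in the level of Mmp3 was not tested.

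Mmp12 (macrophage elastase, ENSMUSG00000049723.14, chromosome 9, 7344381 to 7369499, plus strand) degrades elastin. Its normalised counts in WT-1 to WT-4 were 25.26, 52.98, 84.88 and 61.60, with 55.39 in KO-1 and 164.7 in KO-2. Only KO-2 was above the WT range. The log2 fold change was 0.96 (SE 0.55, 95% interval -0.12 to 2.04) and did not pass the test (DESeq2 adjusted p = 0.309). It was -0.02 for KO-1 alone and 1.54 for KO-2 alone, each against the WT mean. The summed level of 10 macrophage markers was 10111 to 12190 normalised counts in WT, 17267 in KO-1 and 19769 in KO-2, and 9 of the 10 passed as higher in KO. The macrophage sum thus lay above WT in both KO libraries, and Mmp12 in 1 of them. The part of cell makeup in the level of Mmp12 was not tested. Mmp12 shares 157 exon bases, 2.2% of its own, with Mmp1b on the opposite strand, which had 0 counts in all libraries.

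The remaining genes of the chromosome 9 cluster were scarce. Mmp13, an interstitial collagenase, had 14 to 43 counts per library and Mmp27 had 8 to 25. Mmp8, the neutrophil collagenase, had 4 counts in KO-1 and 0 in each other library, and Mmp1a, Mmp1b, Mmp7, Mmp10 and Mmp20 had 0 in every library.

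Mmp2 (gelatinase A, ENSMUSG00000031740.8, chromosome 8, 92827291 to 92853420, plus strand) cleaves denatured and basement membrane collagen and was the most abundant MMP of the members per length. Its normalised counts in WT-1 to WT-4 were 3257, 2821, 2534 and 2647, with 3377 in KO-1 and 2979 in KO-2. KO-1 was slightly above the WT range and KO-2 inside it. The mean was 2815 ± 317.4 in WT and 3178 ± 280.8 in KO, and the log2 fold change of 0.18 (SE 0.18, 95% interval -0.17 to 0.52) did not pass the test (DESeq2 adjusted p = 0.632). As a fold, the interval runs from 0.889 to 1.43.

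Mmp9 (gelatinase B, ENSMUSG00000017737.2, chromosome 2, 164940780 to 164955850, plus strand) has similar substrates and is carried by neutrophils and macrophages. Its normalised counts in WT-1 to WT-4 were 121.9, 153.6, 120.8 and 146.2, with 179.8 in KO-1 and 102.0 in KO-2. The KO libraries lay on opposite sides of the WT range, at log2 0.41 above and 0.41 below the WT mean. The fitted log2 fold change was 0.06 (SE 0.33, 95% interval -0.59 to 0.72; DESeq2 adjusted p = 0.944). The summed level of 8 neutrophil markers was 32.95 to 80.82 normalised counts in WT, 172.2 in KO-1 and 239.7 in KO-2, and Ly6g, Mpo and Elane had 0 counts in all libraries. The macrophage marker sums are given beside Mmp12, and the part of either cell type in the level of Mmp9 was not tested.

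Mmp14 (MT1-MMP, ENSMUSG00000000957.10, chromosome 14, 54431612 to 54445364, plus strand) cleaves fibrillar collagen at the cell surface and, together with Timp2, activates the Mmp2 proenzyme. Its normalised counts in WT-1 to WT-4 were 1819, 1990.0, 1786 and 1739, with 2178 in KO-1 and 2278 in KO-2, and its coefficient of variation in WT, 5.98%, was the smallest of the 10 genes. Both KO libraries were above all WT libraries, with a mean of 1833 ± 109.6 in WT and 2228 ± 70.13 in KO. The fitted difference of 0.28 on the log2 scale (SE 0.16, 95% interval -0.03 to 0.59) did not pass the test (DESeq2 adjusted p = 0.292; 0.210 to 0.816 over the alternatives).

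Mmp15 (MT2-MMP, ENSMUSG00000031790.8, chromosome 8, 95352268 to 95375080, plus strand) is a second membrane-anchored protease. It was at 228.5, 252.3, 179.7 and 207.8 normalised counts in WT-1 to WT-4, 292.9 in KO-1 and 256.9 in KO-2. KO-2 was above WT-2, the highest WT library, by less than the WT SD of 30.84. The log2 fold change was 0.34 (SE 0.25, 95% interval -0.16 to 0.84; DESeq2 adjusted p = 0.472).

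Timp3 (ENSMUSG00000020044.13, chromosome 10, 86300372 to 86349506, plus strand) is the matrix-bound inhibitor of MMPs, ADAM17 and the aggrecanases. Its normalised counts in WT-1 to WT-4 were 44711, 46038, 51800.0 and 53280.0, with 65563 in KO-1 and 58635 in KO-2. Both KO libraries were above all WT libraries. The KO mean was 1.27 times the WT mean, a log2 fold change of 0.34 (SE 0.16, 95% interval 0.03 to 0.66) that did not pass the adjusted threshold (DESeq2 adjusted p = 0.171; 0.108 to 0.440 over the alternatives). Timp3 lies inside Syn3, a synapsin gene on the opposite strand, and 21.3% of its exon bases are shared with Syn3, while it is not stated whether the counting used strand. Syn3 had 508.8 ± 196.8 normalised counts in WT and 417.2 in KO (DESeq2 adjusted p = 0.720).

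Timp2 (ENSMUSG00000017466.9, chromosome 11, 118301069 to 118355740, minus strand) inhibits most MMPs and takes part in the activation of Mmp2. It was at 25545, 28580.0, 28820.0 and 29626 normalised counts in WT-1 to WT-4, 24905 in KO-1 and 25318 in KO-2. Both KO libraries were below all WT libraries, but WT-1 lay close to them. The log2 fold change was -0.16 (SE 0.15, 95% interval -0.45 to 0.12; DESeq2 adjusted p = 0.579).

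Timp4 (ENSMUSG00000030317.8, chromosome 6, 115241892 to 115252205, minus strand) is the inhibitor best known from heart and adipose tissue. It was at 154.9, 243.4, 226.7 and 179.6 normalised counts in WT-1 to WT-4, 338.4 in KO-1 and 279.0 in KO-2. Both KO libraries were above all WT libraries, with a KO mean 1.53 times the WT mean. The log2 fold change of 0.62 (SE 0.28, 95% interval 0.07 to 1.16) was the largest of a Timp gene and did not pass the adjusted threshold (DESeq2 adjusted p = 0.153; 0.118 to 0.605 over the alternatives). Heart and fat markers also differed: the summed level of cardiac muscle markers was 3095 to 4441 in WT, 29061 in KO-1 and 4185 in KO-2, and that of white adipocyte markers was 2105 to 3743, 3543 and 31701. Brown adipocyte markers summed to 488.7 to 703.0 in WT, 939.4 in KO-1 and 11849 in KO-2. In KO-1, Ucp1 (40.22) and Elovl3 (0.0) lay inside the WT range, while Cidea, Ppargc1a, Cox7a1 and Cox8b lay above it. Of the 8 cardiac markers, 3 were higher in KO and none lower. The cardiac sum of KO-2 hides markers that parted. Tnnt2 (1975), Tnni3 (264.3) and Actc1 (270.4) lay above all WT libraries there. Ryr2 (1368), a large part of each WT sum, and Myl4 (98.33) lay below them, and the others inside the WT range. Timp4 was above WT both in the library with the high cardiac sum and in the library with the high adipocyte sums. The part of heart and fat tissue in its level was not tested. Timp4 lies inside Syn2, which had 49.59 normalised counts in WT (log2 fold change 0.82, DESeq2 adjusted p = 0.421), and shares 1.5% of its exon bases with it.

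Timp1 (ENSMUSG00000001131.11, chromosome X, 20870166 to 20874735, plus strand) is the inducible, secreted inhibitor. It was at 774.4, 641.2, 401.4 and 350.8 normalised counts in WT-1 to WT-4, 377.1 in KO-1 and 510.1 in KO-2. The WT libraries differed from each other by more than the groups did, with a coefficient of variation of 36.9%, and both KO libraries lay inside the WT range. The log2 fold change was -0.29 (SE 0.33, 95% interval -0.93 to 0.35; DESeq2 adjusted p = 0.683). Timp1 lies inside Syn1 on the opposite strand without sharing exon bases, and Syn1 had 122.5 normalised counts in WT (log2 fold change -0.68, DESeq2 adjusted p = 0.322).

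The make-up of the 10 members was described by ratios within each library. The ratio of Timp3 to Timp2, per kilobase of exon, was 0.837, 0.771, 0.860 and 0.860 in WT-1 to WT-4, 1.26 in KO-1 and 1.11 in KO-2. Both KO libraries were above all WT libraries. This ratio does not depend on how the libraries were scaled, but its size depends on the gene length used. The ratio was chosen after the values of its genes were seen and was given no test. Timp3 made up 41.1% to 44.9% of the summed Timp level in WT, 53.9% in KO-1 and 50.3% in KO-2. Mmp3 made up 24.1% to 34.1% of the summed level of the 6 Mmp members in WT, 20.0% in KO-1 and 11.0% in KO-2. This share was given no test. It is not separate from the fall of Mmp3, whose own normalised counts overlapped between the groups. The summed Timp level over the summed level of the 6 Mmp members was 6.94, 7.27, 9.56 and 8.24 in WT-1 to WT-4. It was 8.07 in KO-1 and 9.34 in KO-2, inside the WT range. The sum leaves out the other Mmp genes. Of these, Mmp17 (mean 5252 normalised counts in WT, 2974 in KO) and Mmp23 (3715 and 2596) exceeded Mmp2 (2815) in WT. Both were lower in KO-1 and KO-2 than in all WT libraries. Mmp28 and Mmp19, also left out, rose. The ratio over all Mmp genes was not computed and may differ in size and overlap. These are levels of RNA, and neither protein nor activity was measured.

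**Figure D3:**
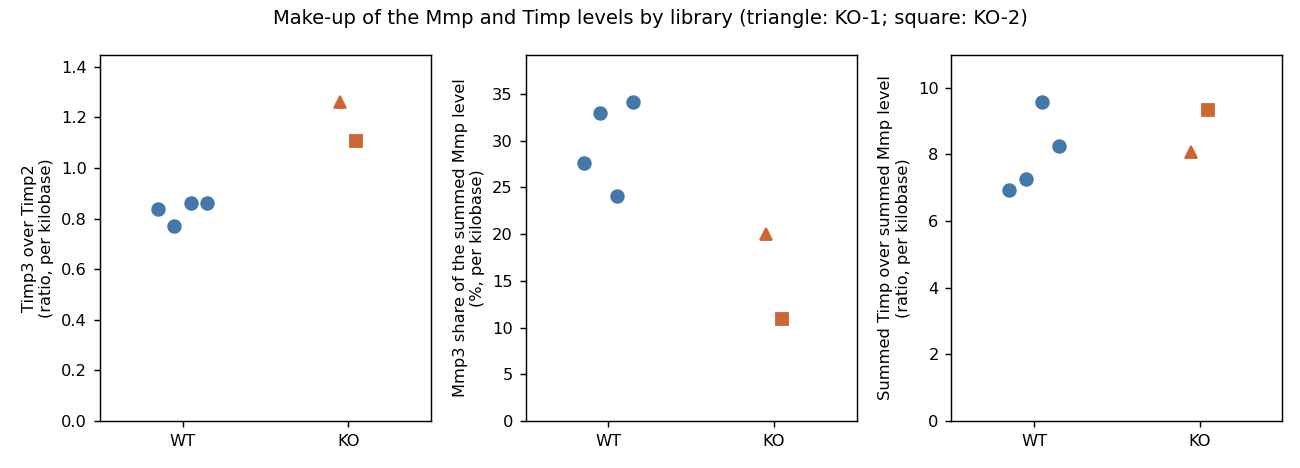
Ratio of Timp3 to Timp2, share of Mmp3 in the summed Mmp level, and ratio of the summed Timp to the summed Mmp level, each from normalised counts per kilobase of exon, by library (WT, circles; KO-1, triangle; KO-2, square). The Mmp sum holds the 6 Mmp members only. The Timp3 to Timp2 ratio is 0.771 to 0.860 in WT and 1.11 to 1.26 in KO. The Mmp3 share, which restates the fall of Mmp3, is lower in both KO libraries. The ratio of the 2 sums overlaps between groups.

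Of 17 other Mmp genes of the mouse, 6 had 0 counts in all libraries (Mmp1a, Mmp1b, Mmp7, Mmp10, Mmp20 and Mmp21) and 9 received an adjusted p, of which 2 rose and 1 fell, with a median log2 fold change of -0.31. Mmp17 (MT4-MMP), an MMP bound to the membrane by a lipid anchor, was at 4994 to 5827 normalised counts in WT, 3308 in KO-1 and 2640.0 in KO-2. It fell by 0.82 on the log2 scale (SE 0.17, DESeq2 adjusted p = 8.52e-05) and passed in all 13 alternatives. Mmp28 (epilysin), a secreted MMP, was at 234.0 to 468.8 in WT, 856.7 in KO-1 and 671.1 in KO-2. It rose by 1.21 (SE 0.29, DESeq2 adjusted p = 0.00104) and passed in 11 of 13, with a DESeq2 adjusted p of 0.0639 without KO-1. Mmp19, a secreted MMP that cleaves basement membrane proteins, was at 185.7 to 319.6 in WT, 354.4 in KO-1 and 515.0 in KO-2. It rose by 0.89 on the log2 scale (SE 0.29, DESeq2 adjusted p = 0.0288) and passed in 6 of 13. Its DESeq2 adjusted p was 0.113 without WT-2, 0.0850 without WT-3, 0.0826 without WT-4 and 0.389 without KO-2. The groups did not overlap for any of Mmp17, Mmp28 and Mmp19. Over all genes tested, both KO libraries lay above all WT libraries for 17.6% and below them for 16.3%. Mmp23 was at 2991 normalised counts in KO-1 and 2200.0 in KO-2 beside 3132 to 4285 in WT and did not pass (log2 fold change -0.52, DESeq2 adjusted p = 0.118), nor did Mmp11, Mmp13, Mmp16, Mmp24 and Mmp27. Mmp8 and Mmp25, both with 0 counts in the WT libraries, received no adjusted p.

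**Figure D4:**
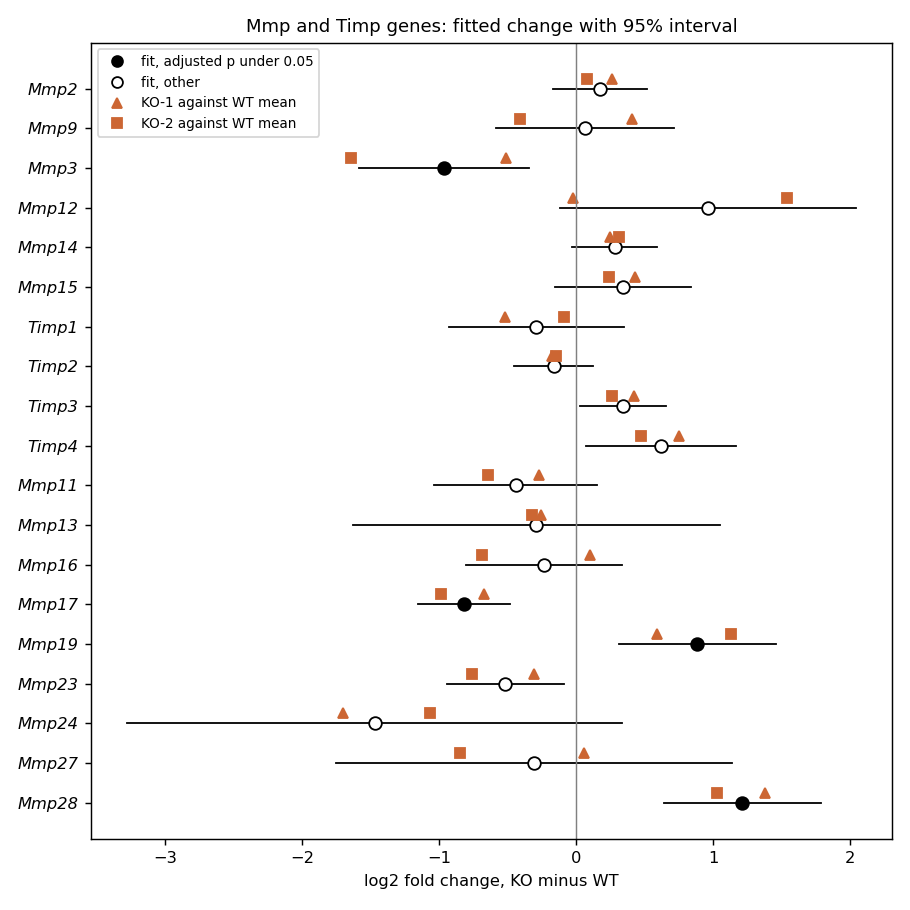
Fitted log2 fold change of KO over WT with its 95% interval for the 10 members and 9 other Mmp genes with an adjusted p (black line and circle, filled where the adjusted p was under 0.05), and the log2 difference of KO-1 (triangle) and KO-2 (square) from the WT mean. Mmp3, Mmp17, Mmp19 and Mmp28 are filled, and the KO libraries lie far apart for Mmp3 and Mmp12.

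Genes that activate, bind or clear MMPs moved in both directions. Of 13 listed genes, 12 received an adjusted p, of which 2 rose and 2 fell, with a median log2 fold change of -0.01. Plaur, the receptor that holds urokinase at the cell surface, was at 261.0 to 340.4 normalised counts in WT, 129.0 in KO-1 and 173.3 in KO-2 (log2 fold change -0.98, SE 0.26, DESeq2 adjusted p = 0.0033; 0.0605 without KO-1). The plasminogen activators Plau and Plat did not pass the test. Of the convertases that cut proproteins, Pcsk5 was at 1558 to 1904 in WT, 896.1 in KO-1 and 770.7 in KO-2 (log2 fold change -1.10, SE 0.18, DESeq2 adjusted p = 1.16e-07), while Pcsk6 was at 940.7 to 1281 in WT, 2202 in KO-1 and 1706 in KO-2 (0.90, SE 0.21, DESeq2 adjusted p = 4.98e-04). Furin, which cuts the Mmp14 proenzyme, was not among the genes that passed. Cd44, a hyaluronan receptor that can hold MMPs at the cell surface, rose by 0.56 (SE 0.20, DESeq2 adjusted p = 0.0451) but passed in 4 of 13 alternatives. Its DESeq2 adjusted p without WT-1, WT-2, WT-3, WT-4 or KO-2 was 0.0717, 0.130, 0.0864, 0.0900 and 0.385. Reck, a membrane-anchored inhibitor of MMPs, and Lrp1, a receptor that clears MMP and TIMP complexes, had log2 fold changes of 0.07 and -0.10 and did not pass. Bsg, Thbs2 and Tfpi2 did not pass either, and A2m received no adjusted p.

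Of 8 proteases that TIMP3 is known to inhibit or that belong to their families, 4 rose and none fell. Their median log2 fold change was 0.57. Across all genes tested, 5.51% rose and 4.53% fell, with a median of 0.01. The list was chosen with earlier results of these data known, so its count is only descriptive. Adamts4 and Adamts5 are the aggrecanases, which cut the large proteoglycans aggrecan and versican. Adamts4 was scarce, at 20.97 to 36.55 normalised counts in WT, 147.2 in KO-1 and 118.0 in KO-2 (log2 fold change 2.16, SE 0.42, DESeq2 adjusted p = 1.89e-05). Adamts5 was at 1896 to 2256 in WT, 4041 in KO-1 and 3084 in KO-2 (0.76, SE 0.19, DESeq2 adjusted p = 0.0011). Adam19, a membrane-bound sheddase, was at 933.5 to 1114 in WT, 1697 in KO-1 and 1750.0 in KO-2 (0.72, SE 0.17, DESeq2 adjusted p = 6.77e-04). Both KO libraries lay above all WT libraries for these 3 genes, as for 17.6% of all genes tested. Each of the 3 passed in 12 of 13 alternatives. Adam12 passed with a DESeq2 adjusted p of 0.0453, but it rested on KO-2: it was at 18.97 to 46.13 in WT, 33.39 in KO-1 and 213.9 in KO-2. Without KO-2 its log2 fold change was 0.01 (DESeq2 adjusted p = 0.997), and without each WT library in turn the adjusted p was 0.0721, 0.0910, 0.134 and 0.131. Adam10, Adam15, Adam17 and Adamts1 did not pass.

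Of 8 cathepsins, proteases of the lysosome that include potent elastases, and cystatins, their inhibitors, 1 rose and 1 fell, with a median log2 fold change of -0.10. Cathepsin S (Ctss), an elastase that is abundant in macrophages, was at 292.8 to 447.1 normalised counts in WT, 806.6 in KO-1 and 1186 in KO-2 (log2 fold change 1.34, SE 0.25, DESeq2 adjusted p = 9.26e-06) and passed in all 13 alternatives. The macrophage marker sum given beside Mmp12 was also higher in both KO libraries, and its part in the level of Ctss was not tested. Cystatin C (Cst3), the main secreted inhibitor of the cathepsins, was at 18462 to 24429 in WT, 15280.0 in KO-1 and 11334 in KO-2 (-0.71, SE 0.20, DESeq2 adjusted p = 0.00804) and passed in 9 of 13, with a DESeq2 adjusted p of 0.0527 without WT-2 and 0.185 without KO-2. Ctsb, Ctsd, Ctsk, Ctsl, Cstb and Cst6 did not pass.

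**Figure D5:**
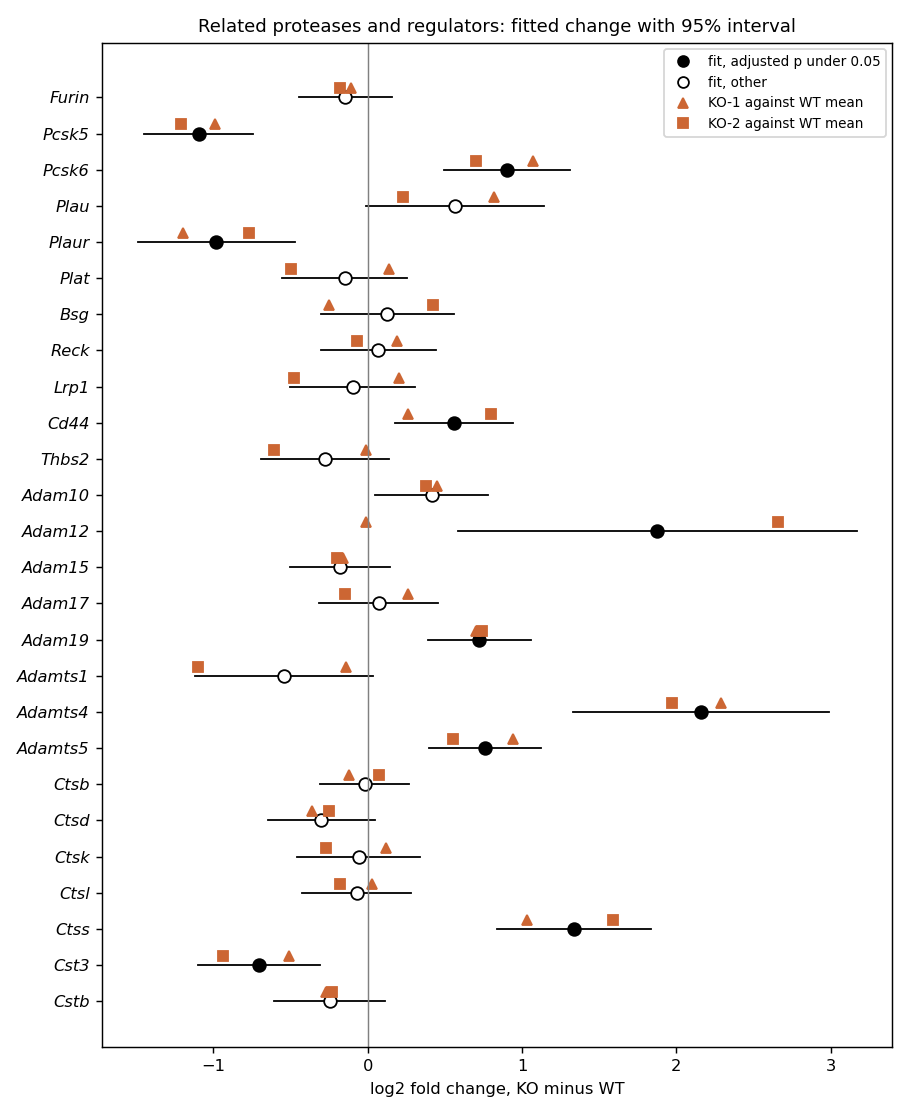
Fitted log2 fold change of KO over WT with its 95% interval for genes that activate, bind or clear MMPs, proteases related to TIMP3, cathepsins and cystatins (black line and circle, filled where the adjusted p was under 0.05), with the log2 difference of KO-1 (triangle) and KO-2 (square) from the WT mean. Pcsk5 lies lowest at -1.10 and Adamts4 highest at 2.16, and for Adam12 the KO libraries lie far apart. A2m, Tfpi2 and Cst6 are not drawn.

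Further markers of other cell types differed between the groups and among the KO libraries. The summed level of 8 endothelial markers was 12730.0 to 22887 normalised counts in WT, 32431 in KO-1 and 31378 in KO-2, with 4 of the 8 higher in KO. Mesothelial markers summed to 228.1 to 451.4 in WT, 899.2 in KO-1 and 2460.0 in KO-2. Red blood cell markers summed to 859.3 to 5990.0 in WT, 11076 in KO-1 and 61684 in KO-2. KO-2 had the highest mesothelial and red blood cell sums, while KO-1 had the highest cardiac sum, given beside Timp4. KO-2 was farther from the WT mean for Mmp3, Mmp12 and Mmp14. KO-1 was farther from it for Mmp2, Mmp15, Timp1, Timp2, Timp3 and Timp4. For Mmp9 the KO libraries were equally far from it, on opposite sides. The part of cell makeup in these differences was not tested.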

How the data were processed

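RNA from 6 thoracic aortas was sequenced. Trim Galore, HISAT2 (GRCm38) and StringTie (GENCODE M15) were the tools the authors used for trimming, mapping and quantification. They deposited estimated counts for each gene, as whole numbers with no scaling for depth, and these entered the fits as they were. How coverage was turned into whole numbers, and whether strand was used, is not given in the sources used here, so genes that overlap on opposite strands can share reads. Columns carry codes and not sample titles, and 0 columns were left unmapped. The paper gives 4 WT and 2 KO mice for the sequenced aortas, so each library is taken as a separate mouse. The p-values measure the spread between these few mice only.

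The 10 members, the related gene lists and the marker lists were chosen with earlier results of these data known. All members, and every gene of the related lists past the adjusted p, were named. DESeq2 1.42.0 in R 4.3.3 compared KO with WT over all genes (Wald test with a single term for group and default settings), and a gene was called at a Benjamini-Hochberg adjusted p under 0.05 over all genes tested, with a change above 2-fold as a stricter rule. Intervals are 95% Wald intervals. Changes of a single KO library were taken after adding 0.5 to the normalised counts. The code was tested on simulated data. The 13 alternatives were the quasi-likelihood test of edgeR 4.0.16 on expressed genes and on all genes with counts, TMM factors, total counts as scaling, a filter of 10 counts in 2 libraries, no independent filtering, a replicate block, and each library left out in turn, where a lone KO library is assumed to vary like the WT libraries. Deviations of same-numbered libraries of the groups showed little correlation, which with 2 KO libraries is a weak check of pairing. Positions and exon lengths came from GENCODE M21 (GRCm38), which held 52403 of the gene identifiers without version and not 233, and promoter windows from RefSeq. A gene that belonged to the related lists was taken out of them and is not reported here.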

Additional observations from a re-analysis of the deposited data

How the results depend on the processing

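The number of genes past the adjusted p was 1763, and it was 996 with edgeR, 931 with edgeR without the low-count filter and 629 with the replicate block. Leaving out each library gave 1099 (without KO-2) to 2408 (without KO-1). With a change above 2-fold as well, 962 genes passed, against 633 with edgeR, 559 with the replicate block and 635 (without KO-2) to 1286 (without KO-1) when each library was left out. The number of members past the adjusted p was 1 and became 0 with edgeR, edgeR without the filter (Mmp3 adjusted p = 0.157), total counts as scaling and the replicate block (Mmp3 log2 fold change -1.18, adjusted p = 0.0624), and ran from 0 to 1 when each library was left out. The direction turned for Mmp9 with the replicate block (-0.011), and without each library in turn Mmp9 ran from -0.41 to 0.42 and Mmp12 from -0.01 to 1.55. Tgfbr2 turned to 0.096 with the replicate block. Of the results for single genes under an alternative, 353 kept their direction and their side of the threshold, 46 kept their direction and lost the call, and 4 turned direction. Adamts4, Adam19, Adamts5 and Fn1 lost their call with the replicate block alone. WT-3 and WT-4 have no KO library of the same number. In that fit the change therefore rests on WT-1, WT-2, KO-1 and KO-2, fewer libraries than in the main fit. Deviations of same-numbered libraries from their group means correlated at -0.0867 (number 1) and 0.014 (number 2) over 15511 genes. With 2 KO libraries, the deviations of KO-1 and KO-2 mirror each other. These correlations are therefore not separate checks and do not settle whether the numbers pair the libraries. The causes were not tested.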
